A study of Caenorhabditis elegans with 12 samples.

Results

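Messenger RNA of *age-1* mutants was compared with that of WT worms across all genes. The comparison rests on 6 of the 12 mRNA libraries of the series, chosen by their genotype labels, with 3 libraries from *age-1* mutants and 3 from WT. The study asked how RNA interference pathways and insulin/IGF-1 signaling (IIS) act together in aging of the nematode *Caenorhabditis elegans*, and the other 6 libraries carry a mutation of *rde-4*, whose product binds double-stranded RNA and works with Dicer. WT is the N2 strain, and the *age-1* strain carries the allele *hx546* in a background that was outcrossed 6 times to N2. Both were hermaphrodites fed OP50 bacteria at 20 °C and collected on the first day of adulthood, before eggs were seen inside them. Each library came from its own worm population, and ribosomal RNA was depleted before strand-specific libraries were made. The mutation is present in every cell of the animal, 1 strain represents it, and whole worms were pooled, so no tissue is singled out. In such bulk samples, fewer cells of a type and less RNA per cell cannot be told apart.

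AGE-1 is the catalytic subunit of phosphatidylinositol 3-kinase. It acts below the insulin receptor homolog DAF-2, and its lipid product recruits the kinases PDK-1, AKT-1 and AKT-2, which keep the FOXO transcription factor DAF-16 out of the nucleus. When signaling falls, DAF-16 enters the nucleus, and genes for stress resistance, metabolism and innate immunity change in expression, a state known for long life and, when strong, for dauer arrest. The allele *hx546* lowers signaling moderately.

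The 6 libraries held 74501098 to 80168292 counts each, and 16741 of 46653 gene identifiers passed the filter on low counts and were tested. Levels are CPM, counts set relative to the library total and scaled by TMM, and a log2 fold change is that of *age-1* over WT from edgeR's quasi-likelihood fit. A gene was called when its Benjamini-Hochberg adjusted p was under 0.05. By this rule 2046 genes (12.2% of those tested) were higher in *age-1* and 432 (2.58%) were lower, while the median log2 fold change of all genes was 0.03. At an unadjusted p under 0.05 the counts were 3528 and 2036. The groups did not overlap, with *age-1* higher, for 3967 genes (23.7%) and, with *age-1* lower, for 2979 (17.8%). The higher genes had the larger changes. Of them, 1596 were more than 2-fold and 524 more than 4-fold higher by the fitted value, and their median log2 fold change was 1.63. Among the lower genes 105 were more than 2-fold and 42 more than 4-fold lower, with a median of −0.49.

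**Figure D1:**
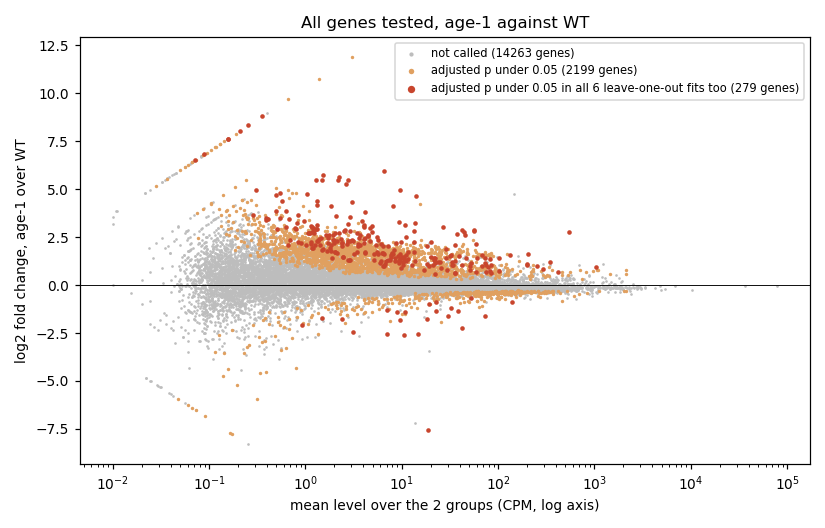
Log2 fold change of *age-1* over WT (vertical axis) against the mean CPM of both groups (log axis) for the 16741 genes tested, with means under 0.01 CPM drawn at 0.01. Called genes are orange, or red where the call held with each library left out; most called genes lie above 0, and the diagonal streaks are genes with no counts in all libraries of a group.

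The counts depended on single libraries. WT replicate 2 was the WT library nearest to *age-1* for 1672 of the 2046 higher and 324 of the 432 lower genes, and *age-1* replicate 2 lay farthest from WT for 1505 and 288 of them. On the first principal component of the 6 libraries, which held 58.2% of the variance, WT replicates 1, 2 and 3 stood at −89.1, −15.6 and −72.3, and *age-1* replicates 1, 2 and 3 at 48.8, 78.3 and 49.9. The genotypes were thus separated on this axis, with WT replicate 2 closest to the mutants. The higher genes numbered 394, 2933 and 307 without WT replicates 1, 2 and 3, and the lower genes 40, 1254 and 46. Without *age-1* replicates 1, 2 and 3 they numbered 1272, 361 and 1153 and 147, 28 and 115. The calls that held in each of these 6 fits numbered 256 higher genes (1.53% of those tested, median log2 fold change 2.11) and 23 lower genes (0.137%, median −1.62). A call that passed in all 6 fits is described as held.

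**Figure D2:**
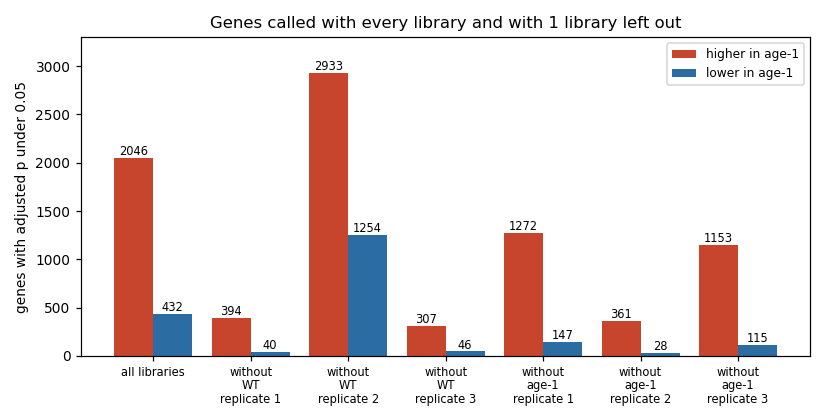
Number of genes called higher (red) or lower (blue) in *age-1* with every library and with 1 library left out in turn. The counts are highest without WT replicate 2, at 2933 and 1254.

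The transcript of the mutated gene itself was measured at like levels in both strains. *age-1* (B0334.8, chromosome II of WBcel235 from 11519328 to 11527054) was at 142 ± 14.6 CPM in WT libraries and 131 ± 4.85 CPM in the mutants (SD, n = 3 in each group). The ranges overlap, and the log2 fold change of −0.11 (SE 0.19) had an adjusted p of 0.725 in edgeR's test. The level says nothing on the labels, since *hx546* changes a codon and need not lower the mRNA.

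Of the 16 genes of the IIS cascade, 2 (12.5%, against 12.2% of all genes) were higher, none was lower, and the median log2 fold change was 0.03. Without WT replicate 2 these counts were 3 and 2, and without any other single library 1 and 0. The AKT kinase gene *akt-2* (F28H6.1, chromosome X from 14147700 to 14152070) was at 12.1, 12.7 and 11.1 CPM in WT libraries and 32.5, 37.5 and 26.6 CPM in *age-1*, so every mutant library lay above every WT library. Its log2 fold change was 1.43 (SE 0.19, adjusted p = 0.00201), and the call held. The 14-3-3 gene *ftt-2*, whose product binds phosphorylated DAF-16, rose from 57.3 ± 10.4 to 80.1 ± 2.37 CPM (SD, n = 3 in each group; log2 fold change 0.48 at adjusted p = 0.0373). That call was lost in all leave-one-out fits but the one without WT replicate 2, with adjusted p-values of 0.0694 to 0.121. The other 14 members had adjusted p-values from 0.113 to 0.759. Among them *daf-16* was at 35.2, 39.3 and 36.9 CPM in WT libraries and 36.8, 34.1 and 34.7 CPM in the mutants, and the log2 fold change was −0.08 (SE 0.11). The receptor gene *daf-2* had a log2 fold change of 0.30 (SE 0.21), *akt-1* −0.11 (SE 0.10), *pdk-1* 0.13 (SE 0.22) and *sgk-1* −0.23 (SE 0.13). The kinase adaptor gene *aap-1* was at −0.25 (SE 0.11), the insulin receptor substrate homolog *ist-1* at 0.69 (SE 0.29), *shc-1* at 0.18 (SE 0.36), the phosphatase subunit gene *pptr-1* at 0.22 (SE 0.19), and the second 14-3-3 gene *par-5* at −0.19 (SE 0.09). *ddl-1* and *ddl-2*, whose products hold back the heat shock factor HSF-1, were at −0.33 (SE 0.14) and 0.20 (SE 0.27). No member of a set of 15 longevity and stress transcription factors was called in either direction, at a median of 0.06 (2 were higher and none lower at an unadjusted p under 0.05, and DESeq2 called none). Without WT replicate 2, and with the replicate number as a block, 2 of them were called higher. Their most abundant members, *hsf-1* and the hypoxia factor gene *hif-1*, were at −0.23 with SE 0.13 (adjusted p = 0.247) and 0.30 with SE 0.11 (adjusted p = 0.0847).

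Insulin-like peptides are the ligands of DAF-2. Of 40 such genes 25 were tested, 6 (24%, against 12.2% of all genes) were higher and none was lower (median 0.82). *ins-37* (F08G2.6) was at 0.502, 0.563 and 0.306 CPM in WT libraries and 2.16, 2.72 and 1.75 CPM in *age-1*, a log2 fold change of 2.27 with SE 0.40 (adjusted p = 0.0071), and *ins-27* (ZC334.11, named after its values were seen) was at 0.624, 1.02 and 1.17 CPM against 2.59, 4.06 and 2.69 CPM (1.73, SE 0.30, adjusted p = 0.00688). Both calls held. *ins-30*, *ins-29* and *ins-22* were higher with log2 fold changes of 3.06, 2.18 and 1.96, all at mean levels of 1.08 CPM or less, and leaving out libraries ended these calls (adjusted p up to 0.169). The higher count was 2, 7, 2, 4, 2 and 3 with WT replicates 1, 2 and 3 and *age-1* replicates 1, 2 and 3 left out in turn, the order used for all such counts. *ins-7* (named after its values were seen), a ligand known to act in feedback from the intestine, was at 1.58 ± 0.13 CPM in WT libraries and 1.76 ± 0.539 CPM in the mutants (log2 fold change 0.15 with SE 0.34, adjusted p = 0.795).

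Single genes that DAF-16 is known to activate rose several-fold, while most members of their lists were not called. *sod-3* (C08A9.1, chromosome X from 17092753 to 17094306), which encodes a mitochondrial manganese superoxide dismutase, was at 4.94, 4.47 and 4.63 CPM in WT libraries and at 18.1, 27 and 21.5 CPM in *age-1*. The 3 WT libraries were close together and all mutant libraries were several-fold above them (log2 fold change 2.25 with SE 0.24, adjusted p = 0.000807, call held). It was the only gene called among 17 tested genes of superoxide and peroxide defence, whose median was 0.025, although 2 were called without WT replicate 1. Of 14 small heat shock protein genes 2 (14.3%, against 12.2% of all genes) were higher. *sip-1* (F43D9.4) rose from 210 ± 17.3 to 475 ± 19.9 CPM (log2 fold change 1.18 with SE 0.16, adjusted p = 0.00228, call held) and *hsp-12.3* from 6.29 ± 0.555 to 13.6 ± 1.53 CPM (1.11, adjusted p = 0.01, lost without WT replicate 3 at 0.0603). The list's count was 2, 4, 1, 2, 2 and 2 in the leave-one-out fits. Its neighbour *hsp-12.6*, a textbook DAF-16 target, was at 2.43, 3.35 and 1.94 CPM in WT libraries and 3.55, 3.14 and 3.36 CPM in *age-1*. These ranges overlap, and the log2 fold change of 0.38 (SE 0.34) had an adjusted p of 0.47. None of 18 large chaperone genes was called (none higher and 4 lower at an unadjusted p under 0.05, 2 lower by DESeq2, 1 lower without WT replicate 2, and 1 higher and 3 lower with the replicate block), and the most abundant of them, *hsp-90* and *hsp-1*, had log2 fold changes of −0.24 (SE 0.11) and −0.07 (SE 0.16).

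Metal handling genes rose in 4 of 11 cases (36.4%, against 12.2% of all genes), and none fell (median 0.29). The ferritin gene *ftn-1* (C54F6.14, chromosome V from 7546468 to 7547579), an iron store, was at 0.678, 1.1 and 0.718 CPM in WT libraries and 5.61, 11.2 and 4.88 CPM in the mutants (log2 fold change 3.12 with SE 0.45, adjusted p = 0.00268, call held). The metallothionein gene *mtl-1* (K11G9.6) was at 1.44, 0.247 and 0.798 CPM in WT libraries and 6.43, 10.9 and 3.96 CPM in *age-1*. Its groups did not overlap, but WT replicate 2 was well below the other WT libraries and the call (3.10, SE 0.64, adjusted p = 0.0128) was lost without WT replicate 3 or *age-1* replicate 2, at 0.0568 to 0.064. The cadmium-responsive genes *cdr-4* and *cdr-2* were higher by log2 fold changes of 0.89 and 0.64, with calls that depended on most libraries (adjusted p up to 0.138 and 0.146 without single libraries). The list's count was 2, 4, 1, 2, 1 and 2 in the leave-one-out fits.

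Genes named *dod*, *dao* and *dct*, a list drawn from earlier *daf-2* studies, went in both directions, with 6 higher and 3 lower of 28 tested. The shares were 21.4% and 10.7%, against 12.2% and 2.58% of all genes, and the median was 0.07. *dod-3* (C24B9.9) was at 0.624, 0.494 and 0.558 CPM in WT libraries and 5.74, 11.9 and 5.53 CPM in the mutants (log2 fold change 3.79 with SE 0.57, adjusted p = 0.00351), and *dct-8* (F56D6.10) at 0.0814, 0.165 and 0.16 CPM against 2.99, 1.83 and 2.67 CPM (4.19, SE 0.60, adjusted p = 0.0028). Both calls held, and in both genes all mutant libraries were at least several-fold above WT. *dct-7* rose by 2.36 (adjusted p = 0.00968, lost without WT replicate 3 at 0.0544). The immune gene *dod-24* (C32H11.12, chromosome IV from 12940106 to 12941354) fell, from 60.9, 54 and 92.8 CPM to 12, 11.6 and 20.6 CPM (−2.24, SE 0.32, adjusted p = 0.0026, call held). In the leave-one-out fits the counts were 5, 7, 3, 5, 4 and 6 higher and 1, 4, 2, 2, 1 and 3 lower.

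**Figure D3:**
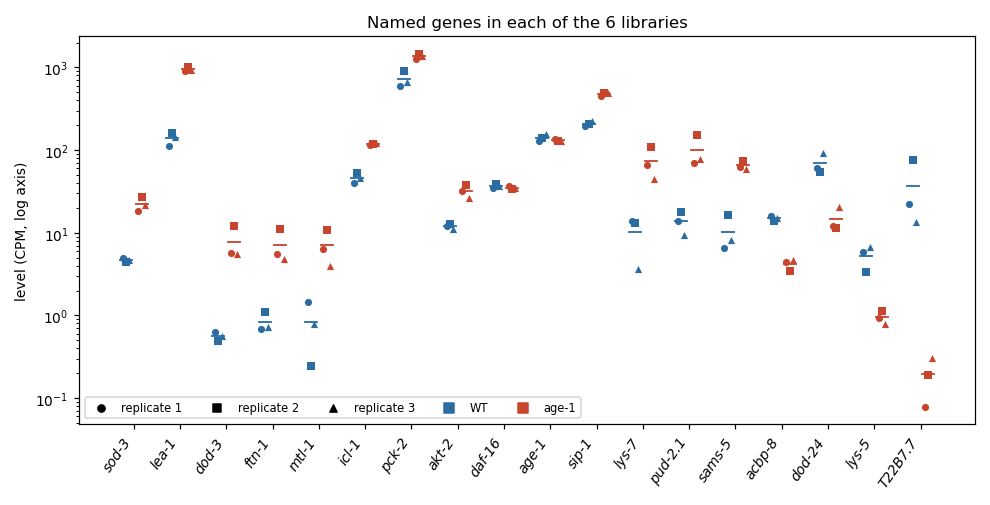
Levels of 18 named genes in each library (CPM, log axis), with WT in blue, *age-1* in red, marker shapes for replicates 1 to 3 and lines for group means. All but *daf-16* and *age-1* have groups that do not overlap.

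Desiccation, trehalose and glycerol genes were higher in 6 of 25 cases (24%, against 12.2% of all genes) and lower in none (median 0.39). The most abundant change was that of *lea-1*, a late embryogenesis abundant protein gene on chromosome V, at 113, 163 and 145 CPM in WT libraries and 911, 1004 and 921 CPM in *age-1*. All mutant libraries lay far above all WT libraries (log2 fold change 2.75 with SE 0.24, adjusted p = 0.000161, call held). *djr-1.2* (C49G7.11), a glyoxalase of the DJ-1 family, rose from 0.117 ± 0.0555 to 0.891 ± 0.278 CPM (log2 fold change 2.91 at adjusted p = 0.00977, call held). *tps-1* (ZK54.2), a trehalose 6-phosphate synthase, was at 11.8, 16.8 and 10.5 CPM in WT libraries and 28, 23.7 and 24.9 CPM in the mutants (0.97, SE 0.17, adjusted p = 0.00739, call held), and *dur-1*, a dauer-induced gene, rose by 1.80 (adjusted p = 0.0186, lost without WT replicates 1 or 3 or *age-1* replicate 2 at up to 0.0852). The higher count was 4, 8, 3, 5, 3 and 5 in the leave-one-out fits.

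Of 24 genes of glycolysis, gluconeogenesis and the glyoxylate cycle, 10 (41.7%, against 12.2% of all genes) were higher and none was lower (median 0.27). The glyoxylate enzyme gene *icl-1* (C05E4.9, chromosome V from 724332 to 728004), which joins isocitrate lyase and malate synthase, was at 40.1, 52.8 and 45.8 CPM in WT libraries and 116, 118 and 122 CPM in the mutants (log2 fold change 1.36 with SE 0.18, adjusted p = 0.00215). All 3 phosphoenolpyruvate carboxykinase genes were higher. *pck-2* (R11A5.4) was at 600, 914 and 658 CPM in WT libraries and 1274, 1462 and 1367 CPM in the mutants (0.92, SE 0.16, adjusted p = 0.00635), *pck-1* rose from 34.9 ± 3.16 to 68.4 ± 10.7 CPM (0.97, adjusted p = 0.00585), and *pck-3* from 3.49 ± 2.57 to 12.2 ± 2.42 CPM (1.81, adjusted p = 0.0277). The calls of *icl-1*, *pck-1* and *pck-2* held. That of *pck-3* was lost without WT replicates 1 or 3 or *age-1* replicates 2 or 3 (up to 0.111), and that of the phosphofructokinase gene *pfk-1.2* (1.6, adjusted p = 0.0443) in all fits but the one without WT replicate 2 (up to 0.176). The list's count was 3, 12, 3, 7, 3 and 5. Among 22 TCA cycle genes only *idhg-2*, a subunit of isocitrate dehydrogenase, was called. It rose from 27.9 ± 4.24 to 57.5 ± 4.72 CPM (1.04, SE 0.17, adjusted p = 0.0055, call held, although the list's count reached 5 without WT replicate 2). Of 29 nuclear genes of the respiratory chain and ATP synthase, the cytochrome c gene *cyc-2.2* alone was called (1.44, adjusted p = 0.0245), and the count was 0, 4, 0, 0, 0 and 1 in the leave-one-out fits. None of 19 tested genes of the mitochondrial genome was called, at a median of −0.05.

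In the methionine and S-adenosylmethionine cycle 3 of 12 genes (25%, against 12.2% of all genes) were higher and none was lower (median 0.26). *sams-5* (T13A10.11), an S-adenosylmethionine synthetase, was at 6.54, 16.2 and 8.26 CPM in WT libraries and 62.1, 74.7 and 59.6 CPM in *age-1*, and its call held (2.66, SE 0.39, adjusted p = 0.00318). The cystathionine beta-synthase gene *cbs-2* (1.67, adjusted p = 0.017) and the phosphoethanolamine methyltransferase gene *pmt-1* (0.55, adjusted p = 0.0448) were higher. The call of *cbs-2* was lost without WT replicates 1 or 3 or *age-1* replicate 2 (up to 0.0739) and that of *pmt-1* in all fits but the one without WT replicate 2 (up to 0.16), and the list's count was 1, 5, 1, 2, 1 and 2. Fatty acid elongases accounted for the 3 higher genes among 21 of fatty acid synthesis, desaturation and elongation (14.3%, against 12.2% of all genes, median 0.07). These were *elo-8*, from 1.30 ± 0.501 to 5.80 ± 1.42 CPM (2.16, adjusted p = 0.00701, call held), *elo-7* (2.47, adjusted p = 0.00855, lost without WT replicate 3 at 0.0509) and *elo-4* (1.35, adjusted p = 0.0199, lost in 3 fits at up to 0.0917). Their count was 2, 3, 1, 3, 2 and 3.

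Lipases and genes of acyl-CoA handling and lipid binding gave 13 higher and 1 lower of 53 (median 0.21). The shares were 24.5% and 1.89%, against 12.2% and 2.58% of all genes. The lysosomal lipase gene *lipl-2* was at 0.38, 1.18 and 0.479 CPM in WT libraries and 2.69, 12.5 and 4.12 CPM in the mutants (3.24, SE 0.75, adjusted p = 0.0185), with *age-1* replicate 2 far above the other mutants. The acyl-CoA synthetase genes *acs-10* and *acs-15* and the acyl-CoA dehydrogenase gene *acdh-5* rose by 1.99, 1.82 and 1.80. All 4 calls were lost without WT replicate 3 or *age-1* replicate 2, at adjusted p-values up to 0.0962, and the list's higher count was 4, 16, 2, 10, 3 and 11. A pair of acyl-CoA-binding genes outside the list was lower, both named after their values were seen. *acbp-8* (Y71H2B.1, chromosome III from 2629013 to 2631362) fell from 15.8, 14 and 15.0 CPM to 4.38, 3.43 and 4.75 CPM (−1.83, SE 0.17, adjusted p = 0.000361), and *acbp-6* (Y17G7B.1) from 15.9 ± 1.58 to 5.95 ± 0.988 CPM (−1.42, adjusted p = 0.00118). Both calls held. Further metabolic genes with calls that held were also named after their values were seen. The alcohol dehydrogenase gene *adh-1* (K12G11.3) rose from 21.8 ± 7.94 to 96.8 ± 27.8 CPM (2.15, adjusted p = 0.00537), the asparagine synthetase gene *asns-2* (M02D8.4) from 13.4 ± 3.63 to 57.8 ± 7.76 CPM (2.11, adjusted p = 0.00155), and the mitochondrial transhydrogenase gene *nnt-1* (C15H9.1), whose product makes NADPH, from 1.03 ± 0.234 to 8.80 ± 2.06 CPM (3.09, adjusted p = 0.0021).

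The 6 vitellogenin genes, which encode yolk proteins made in the intestine, all had log2 fold changes below 0, at a median of −0.345, and none was called (none in either direction at an unadjusted p under 0.05 or by DESeq2). *vit-2* was at 759, 699 and 587 CPM in WT libraries and 681, 559 and 623 CPM in *age-1*, which overlap, and *vit-6* and *vit-5* had log2 fold changes of −0.13 and −0.37 (adjusted p = 0.74 and 0.301). Of 21 cathepsin and aspartyl protease genes 1 was higher and 2 were lower (4.76% and 9.52%, against 12.2% and 2.58% of all genes, median −0.21). The abundant aspartyl protease gene *asp-1* fell from 730, 722 and 750 CPM to 440, 448 and 571 CPM (−0.59, SE 0.14, adjusted p = 0.0199), *asp-12* fell by 1.94 on the log2 scale (adjusted p = 0.0474) and *asp-13* rose by 0.45 (adjusted p = 0.0233). Each of these calls was lost in 4 of the leave-one-out fits, at up to 0.092, 0.215 and 0.118. In these fits the counts were 2, 0, 0, 0, 0 and 1 higher and 0, 3, 0, 1, 0 and 2 lower. In *rde-4* mutants *asp-1*, *asp-12* and *asp-13* were at means of 433, 7.71 and 270 CPM, against 734, 40.5 and 266 CPM in WT. Of 27 autophagy genes, *epg-8* alone was called (−0.38, adjusted p = 0.0376, up to 0.233 without single libraries), and the lower count was 2 without WT replicate 2 and 0 without any other library.

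Innate immunity genes changed singly and in both directions. Among 33 lysozyme and saposin-like peptide genes, 3 were higher and 1 was lower (9.09% and 3.03%, against 12.2% and 2.58% of all genes, median 0.07), and all 4 calls held. The lysozyme gene *lys-7* (C02A12.4, chromosome V from 3481432 to 3482600) was at 14, 13 and 3.60 CPM in WT libraries and 66.5, 109 and 44.7 CPM in the mutants (2.85, SE 0.54, adjusted p = 0.00922), with WT replicate 3 the lowest. *lys-5* (F58B3.2) went from 5.79, 3.32 and 6.71 CPM to 0.924, 1.15 and 0.786 CPM, all mutant libraries below all WT libraries (−2.47, SE 0.34, adjusted p = 0.00238). It was also low in *rde-4* and *age-1; rde-4* mutants, at means of 0.64 and 0.544 CPM. The saposin-like genes *spp-24* and *spp-2* rose by 1.66 and 1.12 (adjusted p = 0.00252 and 0.00635). The antibacterial factor gene *abf-2* (C50F2.10, chromosome I from 3885631 to 3885888) was at 0.0814, 0.0823 and 0 CPM in WT, a few counts per library, and at 2.74, 2.97 and 1.76 CPM in the mutants (5.48, SE 0.72, adjusted p = 0.00201, call held).

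C-type lectins gave 18 higher and 5 lower of 121 (14.9% and 4.13%, against 12.2% and 2.58% of all genes, median 0.05). The 4 with the largest changes were *clec-260*, *clec-236*, *clec-154* and *clec-117*, with log2 fold changes of 3.86, 2.71, 2.44 and 2.41 at *age-1* means of 0.281 to 2.56 CPM, and none of these calls held (adjusted p up to 0.152 without single libraries). *clec-47* (T09F5.9, named after its values were seen) was more abundant and fell from 109 ± 17.5 to 35.6 ± 11.5 CPM (−1.62, SE 0.25, adjusted p = 0.00351, call held). The higher count was 5, 21, 2, 11, 3 and 14, and the lower count 2, 6, 2, 3, 3 and 3. Of 30 infection response genes (*irg* and *pals*), 3 (10%, against 12.2% of all genes) were higher and none was lower (median 0.17). These were *pals-39* (2.68, adjusted p = 0.0153), *pals-26* (2.38, adjusted p = 0.0181) and *irg-4*, from 22.2 ± 1.52 to 42.2 ± 10.1 CPM (0.92, adjusted p = 0.0218), all lost without WT replicate 3 (up to 0.086 over the fits that ended a call), and their count was 1, 4, 0, 3, 1 and 2. Small secreted peptides of the *nspa*, *nspb*, *nspc* and *nspe* families were higher in 6 and lower in 1 of 36 (median 0.09). The shares were 16.7% and 2.78%, against 12.2% and 2.58% of all genes. *nspa-7*, *nspa-6*, *nspa-5* and *nspa-8*, which lie on chromosome V and may share reads, rose by 3.84, 3.59, 3.32 and 2.18, and the calls of *nspa-7* and *nspa-5* held (*nspa-6* and *nspa-8* up to 0.0565 and 0.107). The higher count was 2, 6, 2, 3, 3 and 4.

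Of 181 cytochrome P450, glutathione transferase and glucuronosyltransferase genes, 35 (19.3%, against 12.2% of all genes) were higher and none was lower. The median was 0.47, and 64 genes were higher and 5 lower at an unadjusted p under 0.05. Without WT replicate 2, 4 of them were called lower, and DESeq2 called 2 lower. *cyp-35B1* (K07C6.4, named after its values were seen), a known target of DAF-16, was at 1.37, 1.15 and 0.691 CPM in WT libraries and 7.53, 11.6 and 5.94 CPM in the mutants (2.96, SE 0.38, adjusted p = 0.00181, call held). *cyp-33D1* and *cyp-14A3* had no counts in any WT library. Against a floor of 3 counts per library, their *age-1* means of 0.287 and 0.208 CPM were at least 7.06-fold and 5.13-fold higher (adjusted p = 0.0184 and 0.0137). *ugt-56* and *cyp-13A11* rose by 3.42 and 3.37 (adjusted p = 0.017 and 0.0349). The calls of these 4 were lost without WT replicate 3 (adjusted p up to 0.146 over the fits that ended a call), and the list's count was 12, 42, 8, 25, 11 and 23, with 8 calls that held.

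Several genes with large increases are neighbours, and some had little or no expression in WT. The 6 *pud* genes, named for proteins up-regulated in *daf-2* mutants, lie side by side on chromosome V from 2322038 to 2330930, and all 6 were higher with calls that held. *pud-3* (F15E11.15) was at 0.624, 0.439 and 0.691 CPM in WT libraries and 10.1, 34.7 and 10.4 CPM in the mutants (4.97, SE 0.70, adjusted p = 0.0026), and *pud-4* (F15E11.12) at 0.0814, 0.123 and 0.0798 CPM against 2.52, 7.84 and 2.37 CPM (5.46, SE 0.79, adjusted p = 0.00289). In both, *age-1* replicate 2 was well above the other mutants. The pairs *pud-2.1* and *pud-2.2* (13.8 CPM in WT each, 99.5 and 98.6 CPM in *age-1*) and *pud-1.1* and *pud-1.2* (log2 fold changes 2.75 and 2.63), named after their values were seen, are near-identical copies whose reads could not be told apart with certainty. Not far away, Y19D10A.16 (chromosome V from 2392772 to 2394147) had no counts in any WT library and was at 5.30, 6.53 and 6.57 CPM in *age-1*, with a mean at least 151-fold above the floor of 3 counts per library (adjusted p = 0.0119, lost without WT replicates 1 or 3 at 0.0522 to 0.0528). It was also present without the *age-1* mutation, at 4.42, 6.14 and 4.62 CPM in *rde-4* mutants. In *age-1; rde-4* mutants it was at 2.74, 7.02 and 0 CPM. C01B4.6, which lies on the same chromosome from 2501051 to 2502426 and has the same exon length, was at 7.05 CPM in WT libraries and 7.01 CPM in *age-1*, and whether reads were split between the pair was not tested.

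On chromosome IV, F56D6.9 lies next to *dct-8*, described above. It was at 0.136, 0 and 0.0266 CPM in WT libraries and 2.52, 3.50 and 3.03 CPM in the mutants (5.76, SE 0.82, adjusted p = 0.0026, call held). On chromosome II, F45D11.15 and 4 of its neighbours between 1010444 and 1023528 were all called higher. F45D11.15 rose from 2.59 ± 1.52 to 24.7 ± 12 CPM, and F45D11.14 nearby at 0.421, 1.44 and 0.811 CPM against 6.28, 27.3 and 12.7 CPM (log2 fold changes 3.25 and 4.11, adjusted p = 0.00665 and 0.00779, both calls held, both named after their values were seen). The pseudogene F45D11.2 in this run had no counts in WT and 0.528, 2.16 and 1.29 CPM in *age-1*, with a mean at least 32.7-fold above the floor (adjusted p = 0.0335, up to 0.111 without single libraries). On chromosome I, *icmt-1* (F21F3.3) and *unc-38* (F21F3.5) lie between 4897620 and 4903264. *unc-38*, a nicotinic acetylcholine receptor subunit gene, rose from 1.64 ± 0.442 to 9.45 ± 2.72 CPM, and *icmt-1*, an isoprenylcysteine methyltransferase gene, at 0.529, 1.96 and 0.811 CPM against 11.5, 47.4 and 22.2 CPM (log2 fold changes 2.52 and 4.62, adjusted p = 0.00571 for each, calls held, both named after their values were seen). The fungus-induced peptide relatives *fipr-22* and *fipr-23*, also on chromosome I, rose by 2.79 and 4.93 (adjusted p = 0.00836 and 0.0165). The call of *fipr-23* was lost without WT replicate 3 at 0.071, and that of *fipr-22* held, as did that of *fip-6* (3.15, adjusted p = 0.00102), both named after their values were seen.

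The other genes with the largest increases were F17B5.1, from 0.0867 ± 0.107 to 4.37 ± 2.14 CPM (5.64, SE 0.85), and F21C10.11, from 0.121 ± 0.12 to 5.40 ± 2.35 CPM (5.46, SE 0.69), at adjusted p-values of 0.00351 and 0.00169, with calls that held. Y58A7A.3 and Y58A7A.4, neighbours on chromosome V that may share reads, and the neighbours *spig-5* and *spig-4* also rose, with levels near 0 in WT in the first pair and in *spig-5*. Their values in the *rde-4* strain, where they differ too, are given in the closing section. Noncoding and chromatin genes were among the calls that held, again named after their values were seen. The long noncoding RNA *tts-1* (F09E10.11), known for its abundance in *daf-2* mutants, was at 35.2 ± 5.39 CPM in WT libraries and 102 ± 15 CPM in the mutants (1.54, SE 0.25, adjusted p = 0.00516), and the linker histone gene *hil-1* (C30G7.1) rose from 6.16 ± 0.997 to 20.4 ± 2.25 CPM (1.73, adjusted p = 0.00118). The venom allergen-like gene *vap-2* rose from 5.86 ± 2.85 to 47.8 ± 7.28 CPM (3.03, adjusted p = 0.00384) and *osm-5*, a gene of ciliary transport, from 0.113 ± 0.044 to 1.23 ± 0.709 CPM (3.42, adjusted p = 0.00401).

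Among the lower genes with a mean of at least 50 counts over the 6 libraries, T22B7.7 (chromosome X from 5651865 to 5654074) had the largest change. It was at 22.2, 75.7 and 13.6 CPM in WT libraries and 0.0792, 0.193 and 0.309 CPM in *age-1*, so every WT library was far above every mutant library, and WT replicate 2 exceeded the other WT libraries several-fold. The log2 fold change was −7.57 (SE 0.79, adjusted p = 0.000807), and the call held. F22F4.5, also on chromosome X, fell from 17.4, 19.6 and 17.3 CPM to 4.45, 1.85 and 2.62 CPM (−2.61, SE 0.32, adjusted p = 0.00155), and F09C8.1 from 40.2, 16.9 and 18.7 CPM to 3.50, 6.35 and 3.25 CPM (−2.53, SE 0.38, adjusted p = 0.00351). H02F09.3 fell by 2.06 (adjusted p = 0.00473), and all of these calls held. In *rde-4* mutants F09C8.1 was at a mean of 6.53 CPM and H02F09.3 at 0.528 CPM, against 25.3 and 1.49 CPM in WT. There T22B7.7 and F22F4.5 were at 28.4 and 13.2 CPM, against WT means of 37.2 and 18.1 CPM. Y44A6C.2, F56F4.8 and F41E7.6 fell by 2.58, 2.28 and 2.05, with calls that ended in 1, 4 and 4 of the leave-one-out fits (adjusted p up to 0.063, 0.107 and 0.0782). Genes named after their values were seen were the polyketide synthase gene *pks-1* (C41A3.1), from 29.1, 37.4 and 30.1 to 12.8, 11.7 and 13.7 CPM (−1.34, SE 0.16, adjusted p = 0.00133), *maph-1.2*, a microtubule-associated protein gene, from 39.8, 56.4 and 68.2 to 18.9, 20.6 and 24.1 CPM (−1.37, SE 0.24, adjusted p = 0.00709), and the TRPM channel gene *gtl-1* (C05C12.3), from 65.9, 64.7 and 64.6 to 39.6, 39.3 and 42.3 CPM (−0.69, SE 0.11, adjusted p = 0.00378). These 3 calls held.

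F-box genes, whose products choose substrates for ubiquitin ligases, had more lower than higher calls, at 24 lower and 12 higher of 296 (median −0.23). The shares were 8.11% lower and 4.05% higher, against 2.58% and 12.2% of all genes. A run of 5 *fbxa* genes on chromosome V between 17637982 and 17659385 was called lower throughout. In it the pseudogene *fbxa-193* was at 14.3, 11 and 11.1 CPM in WT libraries and 1.6, 2.14 and 2.42 CPM in the mutants (−2.56, SE 0.22, adjusted p = 0.000161), and *fbxa-129* and *fbxa-108*, named after their values were seen, fell by 1.42 and 1.01 (adjusted p = 0.00378 and 0.00351). These 3 calls held, and reads could be shared within the run. In *rde-4* mutants *fbxa-129* was at a mean of 6.57 CPM and *fbxa-108* at 20.0 CPM, against 12.9 and 25.9 CPM in WT. *fbxb-48*, *fbxb-31*, *fbxb-6* and *fbxb-47* on chromosome II had no counts in any *age-1* library, and their WT means of 0.121 to 0.179 CPM were at least 3.11-fold to 4.61-fold above the floor of 3 counts per library. In WT replicate 2 *fbxb-6* had 2 counts, under this floor. In the order named, the means of these genes in *age-1; rde-4* mutants were 0.500, 0.262, 0.186 and 0.162 CPM. Their calls (adjusted p 0.0148 to 0.0496) and that of *fbxb-91* (−2.78, adjusted p = 0.0433) were lost without WT replicate 1 and in further fits (up to 0.157). *fbxb-91* was at a mean of 1.19 CPM in *age-1; rde-4* mutants, against 1.28 CPM in WT. The family's lower count was 4, 36, 5, 12, 3 and 15, and its higher count 3, 14, 1, 6, 1 and 5. Of 69 MATH and BATH genes, another ubiquitin ligase adaptor family, 2 were higher and 2 lower (*math-48* 1.87, *bath-26* 1.46, *bath-28* −0.38 and *bath-41* −0.38), none of which held (up to 0.229), and the lower count rose to 10 without WT replicate 2 and was 0 without any other library, while the higher count was 0, 3, 0, 2, 0 and 1.

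Sperm genes had the highest medians of the 50 lists, and WT replicates differed among themselves. Hermaphrodites make sperm before they switch to oocytes, and young adults store them. Of 33 tested major sperm protein (MSP) genes, which encode the cytoskeletal protein of nematode sperm, 17 were higher, of 28 genes of small sperm families (*ssp*, *sss*, *ssq*, *nspd*) 22, and of 49 spermatogenesis-defective and sperm function genes 28, and none in any of the 3 lists was lower. The shares called higher were 51.5%, 78.6% and 57.1%, against 12.2% of all genes, and the medians were 1.54, 1.52 and 1.55. The summed level of the MSP genes was 428, 1353 and 631 CPM in WT replicates 1, 2 and 3 and 2319, 2306 and 2174 CPM in *age-1*, so that WT replicate 2 lay between the other WT libraries and the mutants. The MSP count was 0, 32, 0, 2, 0 and 3 in the leave-one-out fits, that of the small sperm families 0, 26, 0, 9, 0 and 8, and that of the spermatogenesis genes 2, 35, 2, 19, 3 and 17. Named members show the pattern. *msp-19* was at 12.7, 43.7 and 18.7 CPM in WT libraries and 122, 79.2 and 69.5 CPM in the mutants (1.85, SE 0.47, adjusted p = 0.0248), *ssp-10* at 9.27, 36.5 and 14.1 CPM against 59.1, 80.6 and 62.0 CPM (1.75, SE 0.50, adjusted p = 0.0361) and *sss-2* at 5.67, 14.7 and 6.55 CPM against 29.3, 48.8 and 28.9 CPM (1.99, SE 0.45, adjusted p = 0.017). *msp-71*, *msp-42* and *msp-52* rose by 2.65, 2.23 and 1.82, *ssp-32* and *ssp-16* by 2.35 and 1.78, and *spe-19*, *spe-29*, *spe-27* and *spe-42* by 3.89, 2.64, 2.45 and 2.43. None of these named calls held, and their adjusted p-values were up to 0.153 in the fits that ended a call. Over the 3 lists, 2 calls held, both among the spermatogenesis genes. MSP genes are near-identical in sequence, so values of single members are uncertain.

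Argonautes of spermatogenesis were also higher. Of 22 Argonaute genes 3 (13.6%, against 12.2% of all genes) were higher and none was lower (median −0.14). *alg-3* (T22B3.2, chromosome IV from 11704246 to 11708264) was at 3.73, 14.3 and 8.06 CPM in WT libraries and 30.7, 42.2 and 32.5 CPM in the mutants (2.01, SE 0.44, adjusted p = 0.0158), and *alg-4* (ZK757.3) at 5.94, 23 and 8.57 CPM against 41.6, 58.4 and 37.5 CPM (1.88, SE 0.45, adjusted p = 0.021). These 2 act in small RNA pathways of spermatogenesis. *wago-10* rose by 2.03 (adjusted p = 0.014). All 3 calls were lost without WT replicates 1 or 3 or *age-1* replicate 2 (0.0547 to 0.0913), and the count was 0, 4, 0, 3, 0 and 3. The summed MSP level of each library, given above, runs in the same order over the WT libraries as *alg-3* and *alg-4*, and the part of sperm content in these calls was not tested. Of 28 genes of the Dicer complex and small RNA amplification, none was higher and the RNA-dependent RNA polymerase gene *ego-1* was lower, from 387, 332 and 380 CPM to 300, 279 and 295 CPM (−0.33, SE 0.10, adjusted p = 0.0422), a call that ended in all fits but the one without WT replicate 2 (up to 0.159), where the count was 10.

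**Figure D4:**
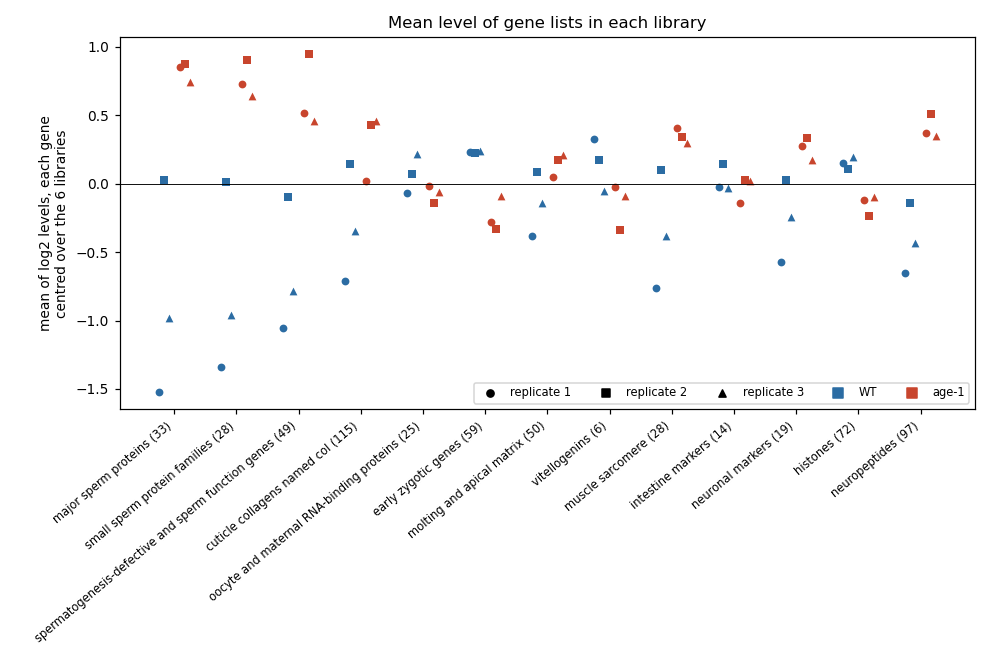
Mean of log2 CPM (after adding 0.1) over the members of 13 gene lists in each library, each gene centred over the 6 libraries, with WT in blue, *age-1* in red and marker shapes for replicates. In the sperm, collagen, muscle and neuron lists WT replicates 1 and 3 lie lowest, while intestine markers show no such order.

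Genes of the cuticle, muscle and nervous system also had their lowest levels in WT replicates 1 and 3. The centred mean log2 level of 115 cuticle collagens was −0.71, 0.15 and −0.35 in WT replicates 1, 2 and 3 against 0.02, 0.43 and 0.46 in the mutants, that of 28 muscle sarcomere genes −0.76, 0.10 and −0.38 against 0.41, 0.34 and 0.30, and that of 33 MSP genes −1.53, 0.03 and −0.98 against 0.86, 0.88 and 0.74. Of the collagens 30 (26.1%, against 12.2% of all genes) were higher and none was lower (median 0.67). Their summed level was 12939 to 20071 CPM in WT libraries and 23637 to 26212 CPM in *age-1*. The most abundant higher genes were mainly collagens. *col-19*, the adult-specific collagen, was at 1403, 2172 and 1577 CPM in WT libraries and 2462 to 2708 CPM in the mutants (0.57, SE 0.18, adjusted p = 0.0494), and *col-181*, *col-178*, *col-122*, *col-184* and *col-80* rose by 0.81, 0.57, 0.79, 0.79 and 0.72. The arginine kinase-like gene F46H5.3, of similar abundance, rose by 0.68 (adjusted p = 0.0245). *col-7*, *col-62* and *col-176* rose by 1.68, 1.59 and 1.55, and *col-131* had no counts in WT and an *age-1* mean at least 2.98-fold above the floor. None of these calls held (up to 0.195), and the collagen count was 2, 40, 2, 11, 4 and 7. Of 19 furrow, strut and body-shape collagens *bli-6* alone was higher (2.05, adjusted p = 0.0109, lost without WT replicates 1 or 3 at up to 0.057; count 0, 6, 0, 1, 1 and 1), and of 50 molting and apical matrix genes 3 were higher, *grd-4*, *grd-13* and *grd-14* by 1.57, 0.99 and 0.89 (none held, up to 0.127; count 0, 7, 0, 1, 0 and 1).

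Of 28 muscle sarcomere genes 9 (32.1%, against 12.2% of all genes) were higher and none was lower. All 28 log2 fold changes were above 0, and the median was 0.63. *unc-54*, the body wall myosin heavy chain, was at 149, 331 and 210 CPM in WT libraries and 535, 432 and 380 CPM in the mutants (0.96, SE 0.29, adjusted p = 0.0421), and *unc-89*, *tni-3* and *unc-15* rose by 1.11, 1.02 and 0.90. The minor body wall myosin gene *myo-3* had a log2 fold change of 0.74 with SE 0.28 (adjusted p = 0.0916). The muscle count was 0, 20, 0, 2, 0 and 3. Neuronal markers gave 3 higher (15.8%, against 12.2% of all genes) and none lower of 19 (median 0.68). The 3 were *ida-1*, *unc-13* and *unc-31*, genes of vesicle release, which rose by 0.92, 0.84 and 0.68 (count 0, 6, 0, 1, 0 and 0). Of 97 neuropeptide genes 25 (25.8%, against 12.2% of all genes) were higher and none was lower (median 0.87, count 8, 44, 3, 15, 5 and 14). *flp-34* (R09A1.5) rose from 1.37, 2.14 and 2.13 CPM to 5.63, 12.3 and 10.3 CPM (2.32, SE 0.36, adjusted p = 0.00356, call held), while the calls of *nlp-71*, *flp-25* and *nlp-48* (2.77, 2.43 and 2.05) did not hold (up to 0.149). The muscle and neuronal marker calls did not hold either (up to 0.146). Collagen, muscle, neuron and sperm levels all ran in the order of replicates 1, 3 and 2 in WT, and their part in the other calls lost without WT replicates 1 or 3 was not tested.

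**Figure D5:**
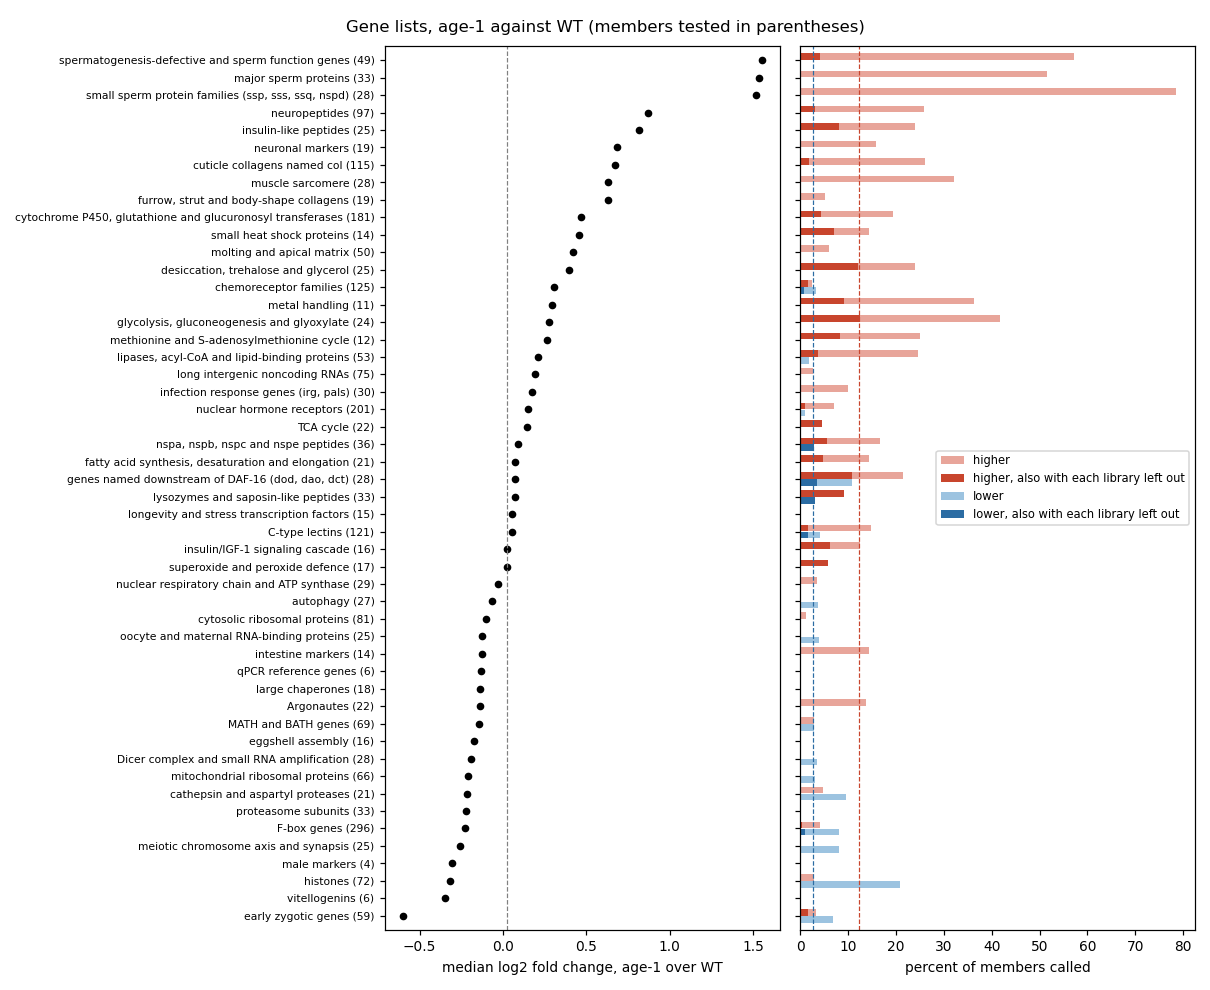
Left, median log2 fold change of *age-1* over WT for each of the 50 gene lists, with the median of all genes as a dashed line; right, percent of tested members called higher (red) or lower (blue), the darker part being calls that held, with dashed lines at 12.2% and 2.58% for all genes. The 3 sperm lists stand highest at medians of 1.52 to 1.55.

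Of 14 intestine markers 2 (14.3%, against 12.2% of all genes) were higher, the gut esterase gene *ges-1* from 33.1 ± 3.77 to 51.2 ± 1.09 CPM (0.63, adjusted p = 0.0208) and the intermediate filament gene *ifc-1* (0.92, adjusted p = 0.0211), at a list median of −0.13 and with counts of 1, 2, 0, 2, 0 and 0. The intestinal GATA factor gene *elt-2* was at 7.33, 6.54 and 7.98 CPM in WT libraries and 8.13, 7.75 and 7.15 CPM in the mutants (0.08, SE 0.17). Of 25 oocyte and maternal RNA-binding genes *nos-2* was lower (−0.46, adjusted p = 0.0223, up to 0.102 without single libraries), and the median was −0.12. The yolk receptor gene *rme-2*, made in oocytes, was at 1085 to 1585 CPM in WT libraries and 1164 to 1200 CPM in the mutants (−0.17, SE 0.25, adjusted p = 0.67). None of 16 eggshell genes was called (none higher and 2 lower at an unadjusted p under 0.05, none by DESeq2, and 3 lower without WT replicate 2), with *cbd-1* and *cpg-2* at −0.15 (SE 0.25) and 0.15 (SE 0.16). Of 25 meiotic axis and synapsis genes *zim-3* and *spo-11* were lower by 0.58 and 0.40 on the log2 scale (adjusted p = 0.0481 and 0.0267; up to 0.22 without single libraries, and 8 genes lower without WT replicate 2). Early zygotic genes were lower in 4 and higher in 2 of 59 (6.78% and 3.39%, against 2.58% and 12.2% of all genes, median −0.60). *sdz-30* fell from 1.15, 1.41 and 1.95 CPM to 0.066, 0.0258 and 0.129 CPM (−4.33, SE 1.09, adjusted p = 0.0243), *sdz-5* and *sdz-4* fell by 3.27 and 2.68, and these calls did not hold (up to 0.105). In *age-1; rde-4* mutants the means of these genes were 1.41, 1.13 and 0.798 CPM, against 1.51, 1.14 and 0.844 CPM in WT. *sdz-24* (K07E8.3) rose from 2.54, 4.29 and 2.92 CPM to 13.6, 24.4 and 18.3 CPM (2.53, SE 0.29, adjusted p = 0.00106, call held). The zygotic lower count was 0, 10, 0, 2, 0 and 2. Male markers were nearly absent, as 4 of 9 were tested, their summed level was 0.373 to 0.796 CPM, and none was called (1 higher at an unadjusted p under 0.05 and by DESeq2), with *her-1* and *pkd-2* at −0.75 (SE 0.38) and 0.14 (SE 1.16).

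Histones were the list with the most lower calls for its size, at 15 lower and 2 higher of 72 (median −0.32). The shares were 20.8% and 2.78%, against 2.58% and 12.2% of all genes. *his-56* and *his-46*, whose reads may be shared among near-identical copies, fell by 0.32 and 0.33 on the log2 scale (2384 ± 279 to 1905 ± 57.8 CPM in *his-56*), *his-63* by 0.31, and *his-51*, *his-21* and *his-19* by 0.94, 0.89 and 0.87, while the histone H3 gene *his-70* rose by 2.24 (adjusted p = 0.0144). None of these calls held (up to 0.293), and the lower count was 0, 23, 0, 7, 0 and 4. The other abundant genes that fell were *rnr-2*, a ribonucleotide reductase subunit gene (from 980, 671 and 766 to 589, 556 and 583 CPM, −0.48, adjusted p = 0.0255), the replication protein A gene *rpa-1* (−0.33, adjusted p = 0.0432), the folate transporter gene *folt-2* (−0.81, adjusted p = 0.0172) and K12H4.7 (−0.43, adjusted p = 0.0493). These calls did not hold (up to 0.104, 0.168, 0.0785 and 0.205).

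Of 81 cytosolic ribosomal protein genes *rpl-11.2* alone was called (0.44, adjusted p = 0.0377, up to 0.14), at a median of −0.10. Of 66 mitochondrial ribosomal protein genes *mrpl-51* and *mrps-26* were lower by 0.46 and 0.37 on the log2 scale (up to 0.216 and 0.272, with 5 lower without WT replicate 2), at a median of −0.21. None of 33 proteasome genes was called, although 16 were lower and none higher at an unadjusted p under 0.05 (median −0.22) and DESeq2, the fit without WT replicate 2 and that with the replicate block called 4, 5 and 13 lower, and *rpn-3* and *pas-3* had log2 fold changes of −0.23 (SE 0.09) and −0.28 (SE 0.12). Of 6 genes used as references in quantitative PCR none was called (1 higher and 1 lower at an unadjusted p under 0.05, none by DESeq2, and 1 in each direction without WT replicate 2), and the most abundant, *eif-3.C* and *tba-1*, were at −0.26 (SE 0.09, adjusted p = 0.0758) and −0.16 (SE 0.18).

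Large regulatory and sensory families had smaller shares of higher calls than the 12.2% of all genes. Of 201 nuclear hormone receptor genes 14 were higher and 2 were lower (median 0.15; higher count 2, 22, 4, 7, 3 and 7). *nhr-73* and *nhr-155* had no counts in WT, and their *age-1* means were at least 5.75-fold and 2.44-fold above the floor. In *age-1* replicate 1 *nhr-155* had 2 counts, under the floor of 3. *nhr-30* and *nhr-74* rose by 2.87 and 2.29, and none of these calls held (up to 0.167). Of 125 chemoreceptor genes tested, of 1631 in the file, 3 were higher and 4 were lower (median 0.31; higher count 2, 8, 2, 3, 2 and 2, lower count 2, 4, 2, 2, 1 and 1). *srr-1* and *str-182* rose by 2.22 and 2.07 with calls that held, *sru-40* by 2.89 (up to 0.124), and *srx-12* fell by 3.20 (up to 0.0839). Of 75 long intergenic noncoding RNAs *linc-36* and *linc-24* rose by 1.94 and 1.32 (up to 0.051 and 0.104; count 0, 3, 1, 5, 1 and 2). Levels were low in the last 2 families. The tested chemoreceptor genes summed to means of 159 and 148 CPM in WT and *age-1*, and the noncoding RNAs to 57.5 and 63.9 CPM. The part of low counts in these shares was not tested.

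Calls were spread over the genome. The share of tested genes called higher was 15.4% on chromosome IV, 13.4% on V, 13% on I, 11.7% on II, 10.3% on III and 8.94% on X, and the share called lower ran from 1.6% on X to 2.98% on IV. Of 389 genes tested within 1 Mb of *age-1* on chromosome II, 43 were higher and 11 lower (11.1% and 2.83%), against 297 and 74 of the 2509 others on that chromosome (11.8% and 2.95%). Linked background differences can reach beyond 1 Mb into those other genes, and their part was not tested. Several runs of neighbours called higher on chromosome IV hold sperm genes, for example a run of 8 between 5055631 and 5072263 that includes *msp-55*, *msp-57* and *msp-53*. By type, 12.7% of protein-coding genes and 11.7% of pseudogenes were higher, and 3.26% of 276 noncoding RNA genes.

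The same mutation was also present in 3 libraries of *age-1; rde-4* double mutants, which can be set against 3 libraries of *rde-4* mutants. Levels and fold changes there came from libraries other than the 6 above, but the spread was estimated over all 12 libraries in 1 model, so the adjusted p-values and calls were not separate from the WT and *age-1* libraries. In that comparison 225 genes (1.34% of those tested) were higher and 41 (0.245%) lower. Of the 225, 135 or 60% were also higher in *age-1* than in WT, which is 6.60% of the 2046. Among the 256 higher calls that had held, 84 or 32.8% were higher there too, 241 had log2 fold changes above 0, and the median was 0.76, against 0.01 for all genes. Among the 23 lower calls that had held, 3 were lower there, 20 had log2 fold changes below 0, and the median was −0.42. By name, *sod-3* was at 5.90 and 17.5 CPM in *rde-4* and the double mutant (log2 fold change 1.56 at adjusted p = 0.00672), *mtl-1* at 1.35 and 19.0 CPM (3.82, adjusted p = 0.0114), *pud-4* at 0.698 and 18.8 CPM (4.75, adjusted p = 0.00607), *abf-2* at 0.245 and 3.27 CPM (3.74, adjusted p = 0.0104) and *unc-38* at 1.64 and 17.1 CPM (3.38, adjusted p = 0.00295). *akt-2*, *icl-1*, *ftn-1*, *dct-8*, *lys-7*, *hil-1*, *tts-1* and *nnt-1* were called higher there as well, with log2 fold changes of 1.04, 0.89, 2.08, 2.88, 2.46, 1.37, 1.16 and 2.08 (adjusted p up to 0.0396). T22B7.7 fell from 28.4 to 0.118 CPM (−7.90, adjusted p = 0.00115), *maph-1.2* by 1.89 and *gtl-1* by 0.67. The sperm Argonautes were not called there, *alg-3* at 0.40 and *alg-4* at 0.42 (adjusted p = 0.727 and 0.722), nor were *dod-24* (−0.76, adjusted p = 0.282), *acbp-8* (−0.56, adjusted p = 0.136) and *sams-5* (1.09, adjusted p = 0.196). In the order named, the WT means of these genes were 8.71, 12.5, 69.2, 14.9 and 10.3 CPM. In *rde-4* mutants the means were 23.9, 28.7, 29.7, 12.9 and 18.4 CPM, and in the double mutant 31.7, 38.4, 17.6, 8.77 and 39.2 CPM. A missed threshold there does not show that the mutation acts differently, and the test of that difference, which passed for 19 genes (0.113%), is given in the closing section.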

How the data were processed

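Whole-worm RNA of 12 populations was sequenced after depletion of ribosomal RNA, and the 6 libraries of WT and *age-1* were compared. Per the study's methods, reads were aligned with HISAT2 (2.0.5) to WBcel235 and assembled with StringTie, whose version is not given in the sources used here. The deposited values are raw counts per gene, which the authors had not scaled. Each group comes from 3 independent populations. Of 46653 identifiers, 46178 were matched by transcript name and 1 by RefSeq locus tag alone, 474 were not matched, and 45304 have a RefSeq symbol.

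Counts were filtered with filterByExpr, scaled by TMM and tested with the quasi-likelihood F-test of edgeR (4.0.16) in R (4.3.3), in 1 model of 4 groups and 12 libraries, which then share an estimate of the spread. P-values were adjusted over all 16741 genes tested by the Benjamini-Hochberg method. Intervals were not drawn from counts, and the floor of 3 counts covers counting error only. The scripts were tested on simulated data. Alternatives were RLE scaling, DESeq2 (1.42.0), no filter, the 2 groups alone, a replicate block, and each library left out in turn.

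Genes were named by rule, as the 12 with the largest fold change and the 8 with the highest CPM in each direction, all called, with groups that do not overlap and with a mean of at least 50 counts over the 6 libraries for both rules, up to 4 called members of each of 50 lists by fold change (where none was called, 1 or 2 by CPM), every member of the IIS cascade, and 10 textbook genes. For 1 member of the cascade the result is not reported here. The members and lists were chosen with earlier results of these data known. Reads of *pud*, *msp*, *nspa* and histone copies may be shared. Promoter sequences were not analysed here.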

Additional observations from a re-analysis of the deposited data

Results flagged for a closer look

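The effect of the *age-1* mutation differed between the WT and *rde-4* backgrounds, by the interaction term of the edgeR model, for 19 genes (0.113% of those tested), of which 7 are named here. The difference is the log2 fold change of *age-1; rde-4* over *rde-4* minus that of *age-1* over WT. In each of them the *rde-4* strain was already nearer to the *age-1* level than WT was.

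*lea-1* had means of 141 and 945 CPM in WT and *age-1* and of 354 and 561 CPM in *rde-4* and the double mutant, a difference of −2.09 (SE 0.32, adjusted p = 0.0271). The 3 *rde-4* libraries were at 283, 487 and 292 CPM and the 3 double mutant libraries at 406, 624 and 651 CPM, which overlap. The neighbours Y58A7A.3 and Y58A7A.4 differed by −6.13 with SE 0.83 (adjusted p = 0.0144) and by −5.74 with SE 0.87 (adjusted p = 0.0271). Y58A7A.3 was at 0.21 CPM in WT alone and at 12.8, 20.0 and 17.4 CPM in *age-1*, *rde-4* and the double mutant, and Y58A7A.4 at 0.0637, 2.91, 4.79 and 4.01 CPM in the same order. Both are thus low in WT only among the 4 strains.

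The neighbours *spig-4* and *spig-5* differed by −2.2 with SE 0.31 (adjusted p = 0.0175) and by −4.51 with SE 0.56 (adjusted p = 0.00952). In the same order of strains, *spig-5* was at 0.131, 5.16, 2.63 and 4.53 CPM and *spig-4* at 0.923, 5.97, 3.63 and 5.1 CPM. *tsp-5*, a tetraspanin gene, had no counts in WT and was at 0.712, 0.605 and 0.489 CPM in the other strains, so its difference of −9.11 (SE 1.08, adjusted p = 0.0144) depends on the prior count and is no bound. *fbxa-193* went the other way, with *age-1*, *rde-4* and double mutant means of 2.05, 2.19 and 1.69 CPM, below every WT library (2.19, SE 0.30, adjusted p = 0.0144). Each contrast rests on 3 libraries a group. The part of strain background in these differences was not tested.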

How the results depend on the processing

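The counts of calls depended on the processing. The higher count was 1106 with no filter on low counts and ran from 307 to 2933 with 1 library left out. The lower count was 1112 with DESeq2, 150 with no filter, 264 with the 2 groups alone, 1605 with the replicate block, and 28 to 1254 with 1 library left out. With the replicate block the higher count was 2989. Deviations of same-numbered WT and *age-1* libraries correlated at 0.16, 0.20 and 0.09, each the highest for its library. Those of differently numbered libraries correlated at −0.16 to −0.008. Deviations from a group mean cancel over its 3 libraries, so these lower values follow in part from the same-numbered ones. The labels do not say whether same-numbered populations were handled together, and a shared batch was not tested. The main counts ignore any such pairing. Scaling by RLE gave 2015 higher and 557 lower genes, and DESeq2 2644 higher genes. The cause of these shifts was not tested.

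Of the 228 named genes, 69 lost their call without the filter, 4 with RLE, 2 with the block and none with DESeq2. With the 2 groups alone 20 lost it and 199 were unchanged, and the rest had no entry for that fit. With WT replicates 1, 2 and 3 and *age-1* replicates 1, 2 and 3 left out in turn, 114, 209, 106, 161, 116 and 160 of the 228 named genes kept both their direction and their side of the threshold. Directions could hardly change, as 194 of the 228 were called. The groups did not overlap in 2039 of all 2046 higher and 431 of all 432 lower calls. Of the named genes that were not called, 5 changed sign with a library left out, with ranges from −0.2058 to 0.0133 in *akt-1*, −0.295 to 0.0084 in *cbd-1*, −0.0033 to 0.1375 in *elt-2*, −0.1645 to 0.0232 in *hsp-1* and −0.1725 to 0.9334 in *pkd-2*. *hsp-1* was at 0.0018 without *age-1* replicate 2, and *pkd-2* at −0.06 and −0.08 without WT replicate 3 and *age-1* replicate 3. Depth was alike in all libraries.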

Other observations

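Some gene families outside the lists, chosen after their values were seen, also held many higher calls, against 12.2% of all genes tested. Of 54 transthyretin-like (*ttr*) genes, which encode secreted proteins of nematodes, 24 were higher and 2 were lower (median log2 fold change 0.64), and 8 of the higher calls held in each fit with 1 library left out. With WT replicates 1, 2 and 3 and *age-1* replicates 1, 2 and 3 left out in turn, 11, 29, 8, 20, 10 and 19 were higher. Of 16 *spig* genes 8 were higher (median 1.03, 3 held, with 4, 11, 3, 6, 3 and 5 in the same fits), and of 22 fungus-induced peptide genes and relatives 6 (median 0.63, 4 held, with 5, 7, 4, 5, 5 and 5). Astacin protease (*nas*) genes gave 5 of 27 (median 0.45, 2 held, with 2, 5, 2, 4, 3 and 3) and chitinase-like (*chil*) genes 3 of 15 (median 0.59, 2 held, with 2, 5, 2, 3, 2 and 3). None of these 4 last families had a lower call in edgeR's test with every library.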
